A study of Homo sapiens with 6 samples.

Results

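The genes described here are 10 of the 60612 gene rows in the count table, chosen by name. They are HIF1A and EPAS1, which encode the alpha subunits of the hypoxia-inducible factors HIF-1 and HIF-2, and 8 genes known to be induced in low oxygen that do not encode glycolytic enzymes: VEGFA, ADM, NDRG1, EGLN3, BNIP3, ANKRD37, P4HA1 and KDM3A. All 10 passed the filter on low counts. They were measured by RNA sequencing of U251, an established human glioma cell line, in 3 TEAD3 knockdown libraries and 3 control libraries that the labels call Normal Control. TEAD3 is a transcription factor of the TEAD family, which binds DNA together with the coactivators of the Hippo pathway. The knockdown was transient. Its protocol mentions a plasmid vector as well as an siRNA, and what the control cells were given is not said. All cells were grown in serum-supplemented medium in a CO2 incubator. The labels name no low-oxygen treatment for either group.

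In normal oxygen the HIF alpha subunits are made continuously, hydroxylated on prolines by the EGLN enzymes, bound by the VHL protein and degraded. In low oxygen they escape this, pair with ARNT and bind hypoxia response elements near their target genes. Hydroxylation and degradation act on the protein, so the transcript levels of HIF1A and EPAS1 do not measure HIF protein. In glioma the pathway is known for driving vessel growth through VEGFA and for marking poorly oxygenated tumour regions.

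Windows of 300 bases, from 250 bases before the RefSeq transcription start to 50 after, were searched in 8 of the 10 genes. No window of VEGFA or NDRG1 was searched, which does not say that none exists. The motif counts here therefore leave out these genes, and NDRG1 had the third smallest p of the 10. The core of the hypoxia response element was searched as ACGTG or GCGTG on both strands. It was found for 7 of the 8 genes, HIF1A (in the first of its 2 windows), EPAS1, ADM, BNIP3, ANKRD37, P4HA1 and KDM3A, while the EGLN3 window held neither form. Among all 35114 such windows 48.4% held the core. That share is per window and was not matched for GC content, while a gene with more than 1 window was counted if any held the core. The TEAD motif GGAATG, searched on both strands, was in no window of the 8 genes, against 14% of all windows, which says only that these letters are not in these windows. The sequences below are the 250 bases before the start of EPAS1 and ADM, the 2 genes with the largest fold changes here, and of BNIP3 and ANKRD37, the 2 genes with the most core matches. They are RefSeq sequence of build GRCh38.p14, read 5′ to 3′ on the strand of the gene, and capitals mark each core match on either strand. EPAS1 covers chr2:46297157-46297406 on the plus strand, ADM chr11:10304823-10305072 on the plus strand, BNIP3 chr10:131981924-131982173 on the minus strand and ANKRD37 chr4:185396591-185396840 on the plus strand.
EPAS1: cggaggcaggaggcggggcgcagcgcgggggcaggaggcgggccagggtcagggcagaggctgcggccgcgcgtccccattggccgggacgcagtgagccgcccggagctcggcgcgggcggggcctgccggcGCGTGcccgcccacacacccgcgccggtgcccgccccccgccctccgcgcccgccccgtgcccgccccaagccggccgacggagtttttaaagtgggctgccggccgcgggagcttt
ADM: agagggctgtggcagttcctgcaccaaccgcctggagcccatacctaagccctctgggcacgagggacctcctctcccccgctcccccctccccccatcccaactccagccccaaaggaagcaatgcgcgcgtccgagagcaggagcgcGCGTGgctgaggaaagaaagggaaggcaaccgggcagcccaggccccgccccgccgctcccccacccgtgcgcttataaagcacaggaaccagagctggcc
BNIP3: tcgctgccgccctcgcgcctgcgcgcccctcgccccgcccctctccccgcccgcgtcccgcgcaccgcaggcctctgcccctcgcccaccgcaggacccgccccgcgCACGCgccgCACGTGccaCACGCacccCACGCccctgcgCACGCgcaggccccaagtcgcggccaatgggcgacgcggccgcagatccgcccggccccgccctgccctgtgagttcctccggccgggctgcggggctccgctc
ANKRD37: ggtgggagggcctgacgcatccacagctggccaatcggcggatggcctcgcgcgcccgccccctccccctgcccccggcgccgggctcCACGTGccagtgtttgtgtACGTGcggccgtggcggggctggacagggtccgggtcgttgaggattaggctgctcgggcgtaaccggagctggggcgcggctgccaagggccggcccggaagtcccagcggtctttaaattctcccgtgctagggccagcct
EPAS1 and ADM each held 1 match, GCGTG on the strand of the gene, beginning 117 bases before the start of EPAS1 and 101 bases before that of ADM. BNIP3 held 6 matches between 143 and 104 bases before its start, of which 2 overlapped as CACGTG. ANKRD37 held 3, of which 2 also overlapped as CACGTG. A match describes letters in the window and does not show that a factor binds there.

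None of the 10 genes passed the test after TEAD3 knockdown. EPAS1 and ADM came nearest, with transcript levels 1.73-fold and 1.65-fold those of the control, and NDRG1 was next at 1.31-fold. HIF1A, VEGFA, EGLN3, BNIP3, ANKRD37, P4HA1 and KDM3A had fold changes between 1.02 and 1.20, with 95% intervals that all included 1. The test was edgeR's quasi-likelihood test with Benjamini-Hochberg adjustment over 17723 genes, with a gene called at an adjusted p under 0.05. It called 0 of the 10. Over all tested genes it called 0.655%, made up of 80 genes higher in the knockdown (0.451%) and 36 lower (0.203%). A correction for transcript length and GC content changed that split to 248 higher and 323 lower. Of the 10, 3 were higher with an unadjusted p under 0.05 and 0 were lower, against 15.6% of all tested genes, 8.15% higher and 7.43% lower. DESeq2 called those 3, EPAS1, ADM and NDRG1, all as higher, against 6.11% of all genes it tested, 3.42% higher and 2.69% lower, and limma-voom called 0. The 2 groups of libraries did not overlap for 4 of the 10, with the knockdown above the control each time, against 21.6% of all tested genes, 11% with the knockdown above and 10.6% with it below. All 10 log2 fold changes were above 0, against 49.8% of all tested genes, and their median was 0.16, against a median of -0.0012 over all tested genes. The 10 genes were chosen with earlier results of these data known, so these shares are a description and were not tested. In RNA from a whole culture, a change in the share of cells that express a gene and a change in its level per cell cannot be told apart.

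**Figure D1:**
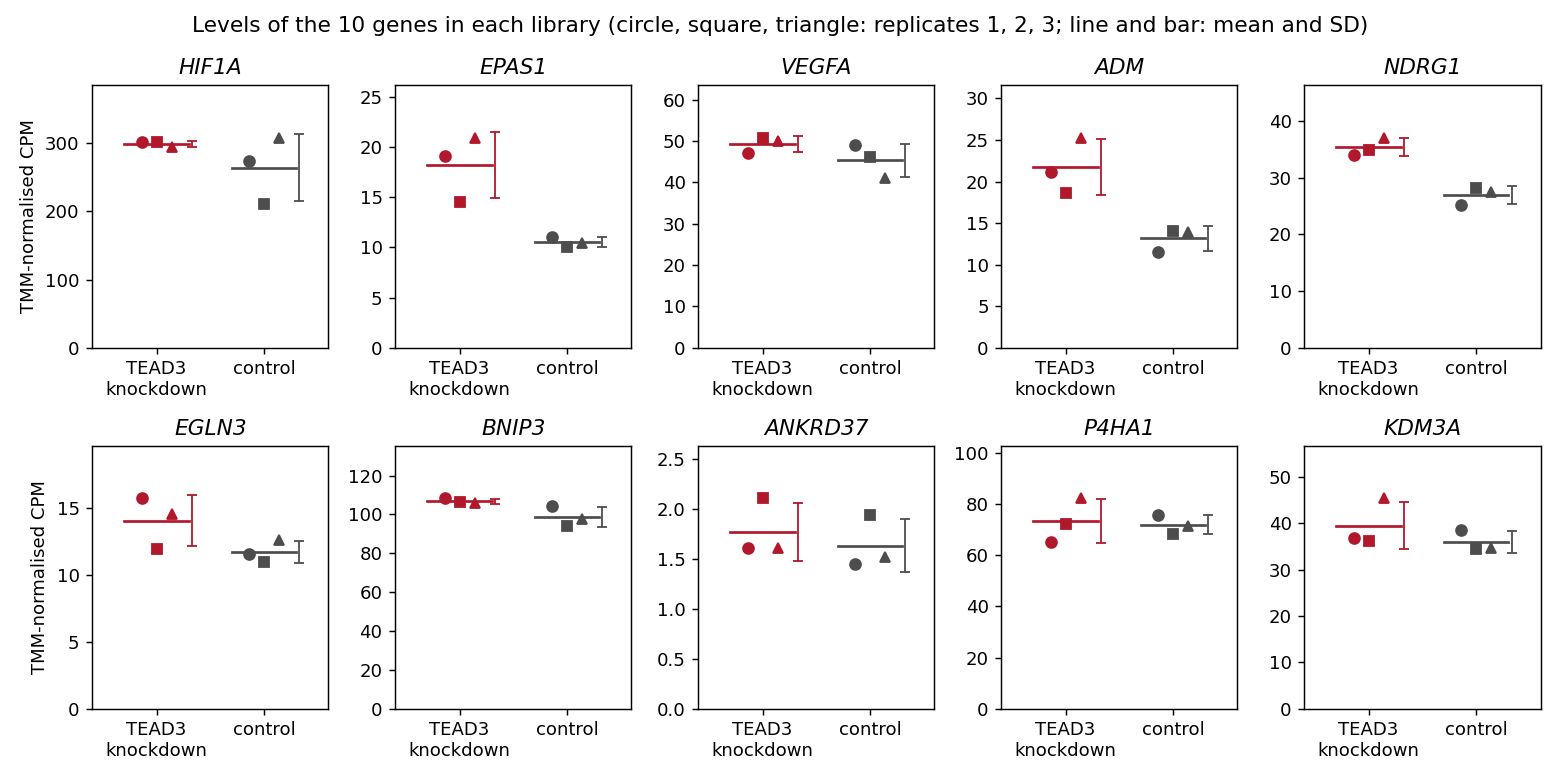
Levels of the 10 genes in CPM (counts scaled to the library total, TMM-normalised) in each of the 3 TEAD3 knockdown and 3 control libraries, with a horizontal line at each group mean and a vertical bar for its SD (n = 3 each). All 3 knockdown points lie above all 3 control points for EPAS1, ADM, NDRG1 and, by a narrow margin, BNIP3.

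HIF1A was the most abundant of the 10 genes. The HIF1A gene (ENSG00000100644) is on the plus strand of chromosome 14, from 61695513 to 61748259 in build GRCh38. This and all later gene positions are from GENCODE 29, and values per library are given in the order of replicates 1, 2 and 3. Its level was 302, 302 and 294 CPM in the 3 knockdown libraries, against 273, 211 and 308 CPM in the 3 controls. The 3 knockdown libraries were close together and lay inside the wider spread of the controls, among which replicate 2 was lowest and replicate 3 was higher than any knockdown library. The means were 299 ± 4.66 CPM in the knockdown and 264 ± 49.1 CPM in the control (SD, n = 3 each). The log2 fold change of HIF1A was 0.18 (SE 0.128, edgeR adjusted p = 0.551), and the interval of the fold ran between 0.931 and 1.38. Its size depended on the control libraries: with control replicate 2 left out it was 0.038, with control replicate 3 left out 0.30, and neither passed the test. Exons of HIF1A overlap those of the antisense gene HIF1A-AS1 over 117 bases, and HIF1A-AS1 was at or below 0.209 CPM in every library.

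EPAS1 had the smallest p among the 10 genes. EPAS1 (ENSG00000116016) is on the plus strand of chromosome 2, from 46293667 to 46386703. Its level was 19.1, 14.6 and 20.9 CPM in the 3 knockdown libraries, against 11.1, 10.1 and 10.5 CPM in the 3 controls. Every knockdown library was above every control, and the lowest of them, replicate 2, stood at 132% of the highest control. The controls varied little, while the knockdown libraries spread more widely. The means were 18.2 ± 3.28 CPM in the knockdown and 10.5 ± 0.496 CPM in the control (SD, n = 3 each). The log2 fold change was 0.79 (SE 0.157), a 1.73-fold difference with an interval between 1.36 and 2.19. Its edgeR adjusted p of 0.0551 missed the threshold, while its DESeq2 adjusted p was 0.000303. By unadjusted p EPAS1 ranked 123 among the 17723 tested genes.

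Expressed per kilobase of exon, EPAS1 transcript amounted to a few percent of HIF1A transcript. The share was 4.46%, 3.40% and 5.02% in the 3 knockdown libraries, against 2.85%, 3.36% and 2.40% in the 3 controls. Knockdown replicate 2 was only just above control replicate 2. The log2 ratio of EPAS1 to HIF1A averaged -4.56 in the knockdown and -5.14 in the control, a difference of 0.58 (exact permutation test, two-sided, p = 0.1). With 3 libraries a group, 0.1 is the smallest p this test can give.

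Of the 2 secreted products, ADM had the larger fold change, a contrast between the genes that was not tested. ADM encodes adrenomedullin, a peptide that widens blood vessels and protects their lining, and VEGFA encodes the main growth factor for blood vessels. ADM (ENSG00000148926, chromosome 11 from 10304680 to 10307397, plus strand) was at 21.2, 18.6 and 25.3 CPM in the 3 knockdown libraries, against 11.5, 14.0 and 13.9 CPM in the 3 controls. The groups did not overlap, and knockdown replicate 2 was again the lowest of its group, at 133% of the highest control. ADM averaged 21.7 ± 3.36 CPM in the knockdown and 13.2 ± 1.45 CPM in the control (SD, n = 3 each). Its log2 fold change was 0.72 (SE 0.151, edgeR adjusted p = 0.0636), a fold of 1.65 with an interval between 1.31 and 2.08. The DESeq2 adjusted p for ADM was 0.000729, and its rank by unadjusted p was 153.

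VEGFA (ENSG00000112715, chromosome 6 from 43770184 to 43786487, plus strand) was at 47.1, 50.8 and 49.9 CPM in the 3 knockdown libraries, against 48.9, 46.1 and 41.0 CPM in the 3 controls. The highest control, replicate 1, lay between the knockdown libraries, so the groups overlapped. The log2 fold change of VEGFA was 0.12 (SE 0.107, edgeR adjusted p = 0.649). The interval of the fold ran between 0.924 and 1.28.

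NDRG1 encodes a cytoplasmic protein induced by hypoxia, metal chelation and other stresses, and is known as a suppressor of metastasis. NDRG1 (ENSG00000104419, chromosome 8 from 133237171 to 133302022, minus strand) was at 34.0, 34.9 and 37.1 CPM in the 3 knockdown libraries, against 25.2, 28.2 and 27.4 CPM in the 3 controls. Both groups were tight and they did not overlap. The means were 35.3 ± 1.56 CPM in the knockdown and 26.9 ± 1.56 CPM in the control (SD, n = 3 each), with a log2 fold change of 0.39 (SE 0.107). The edgeR adjusted p was 0.127 and the DESeq2 adjusted p 0.0251. Of its 3 relatives 0 were called by edgeR or DESeq2, and NDRG3 alone, lower in the knockdown, had an unadjusted p under 0.05: the log2 fold change was -0.047 for NDRG2, -0.21 for NDRG3 (edgeR adjusted p = 0.320) and 0.21 for NDRG4 (edgeR adjusted p = 0.405).

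EGLN3 is a prolyl hydroxylase that marks the HIF alpha subunits for degradation and is itself a HIF target. EGLN3 (ENSG00000129521, chromosome 14 from 33924231 to 34462774, minus strand) was at 15.7, 11.9 and 14.5 CPM in the 3 knockdown libraries, against 11.5, 11.0 and 12.6 CPM in the 3 controls. Knockdown replicate 2 lay inside the range of the controls, and the other two knockdown libraries were above it. The log2 fold change was 0.26 (SE 0.150, edgeR adjusted p = 0.436), with a fold between 0.955 and 1.51.

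BNIP3 encodes a protein of the outer mitochondrial membrane that recruits the autophagy machinery to mitochondria. BNIP3 (ENSG00000176171, chromosome 10 from 131966455 to 131982013, minus strand) was at 108, 106 and 106 CPM in the 3 knockdown libraries, against 105, 94.2 and 97.7 CPM in the 3 controls. The groups did not overlap, but the lowest knockdown library was at 101% of the highest control. The log2 fold change of 0.11 (SE 0.0916, edgeR adjusted p = 0.616) was among the smaller of the 10. BNIP3 has 44 pseudogene copies in the table, of which 10 had a count in some library. Together the copies held between 0.686% and 1.33% of the counts of BNIP3 and its copies in each library.

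For the remaining 3 genes the groups overlapped. ANKRD37, a small ankyrin-repeat protein, is the least abundant of the 10 (ENSG00000186352, chromosome 4 from 185396021 to 185400628, plus strand). It was at 1.61, 2.11 and 1.61 CPM in the 3 knockdown libraries, against 1.45, 1.94 and 1.51 CPM in the 3 controls, with replicate 2 the highest library of both groups. Its log2 fold change was 0.12 (SE 0.276, edgeR adjusted p = 0.895), with the widest interval of the 10 genes, 0.713-fold to 1.65-fold. On the opposite strand UFSP2 covers 35.2% of the exon bases of ANKRD37, and at 22.3, 22.7 and 24.5 CPM in the knockdown and 21.6, 18.6 and 22.1 CPM in the control it was far more abundant. How reads were assigned to strands in the counting is not given, so the ANKRD37 level is uncertain.

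P4HA1 encodes the catalytic alpha subunit of the prolyl hydroxylase that stabilises collagen (ENSG00000122884, chromosome 10 from 73007217 to 73096974, minus strand). It was at 65.1, 72.3 and 82.3 CPM in the 3 knockdown libraries, against 75.8, 68.4 and 71.6 CPM in the 3 controls. The control range lay inside the knockdown range, and the log2 fold change was 0.026 (SE 0.110, edgeR adjusted p = 0.951). It turned to -0.066 without knockdown replicate 3, to -0.011 without control replicate 2 and to -0.039 with the length and GC correction. The other subunits, P4HA2, P4HB and the scarce P4HA3, had log2 fold changes of -0.16, -0.11 and 0.49, and 0 of these 3 genes had an unadjusted p under 0.05 or a DESeq2 call.

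KDM3A is a histone demethylase that removes methyl groups from lysine in histone tails (ENSG00000115548, chromosome 2 from 86440647 to 86492716, plus strand). It was at 36.9, 36.2 and 45.4 CPM in the 3 knockdown libraries, against 38.7, 34.6 and 34.7 CPM in the 3 controls. Knockdown replicate 3 alone stood above the controls, and the other two lay within their range. The log2 fold change was 0.14 (SE 0.121, edgeR adjusted p = 0.651), and 0.024 without knockdown replicate 3. Its 2 relatives, KDM3B and JMJD1C, were called by neither edgeR nor DESeq2, and KDM3B had an unadjusted p of 0.0116 in edgeR's test. They were at log2 fold changes of -0.31 (edgeR adjusted p = 0.186) and 0.25 (edgeR adjusted p = 0.509).

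**Figure D2:**
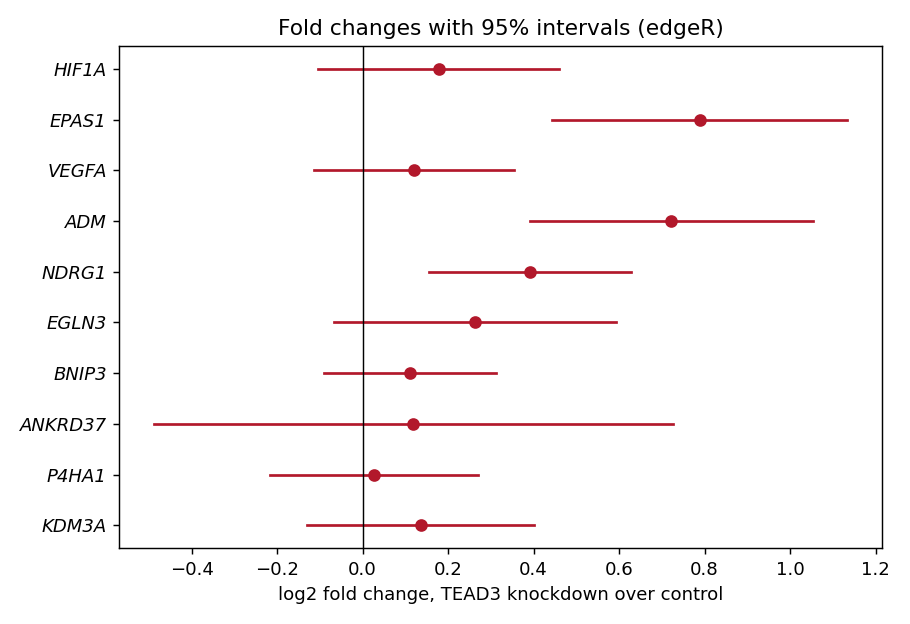
Log2 fold changes, TEAD3 knockdown over control, of the 10 genes, with points for the edgeR estimate and lines for its 95% interval. The intervals of EPAS1, ADM and NDRG1 lie above 0 and the other 7 include 0; the intervals are per gene, and none of the 10 genes passed after adjustment over all tested genes.

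The order of the transcripts by level, in CPM per kilobase of merged exon, was nearly the same in both groups. HIF1A stood first at 58.1 ± 0.904 in the knockdown and 51.3 ± 9.54 in the control (SD, n = 3 each). P4HA1 followed at 23.7 ± 2.79 and BNIP3 at 20.05 ± 0.264 in the knockdown, against 23.3 ± 1.21 for P4HA1 and 18.6 ± 0.981 for BNIP3 in the control. ADM was next, at 7.98 ± 1.24 in the knockdown and 4.84 ± 0.534 in the control. These 4 genes did not overlap with their neighbours in the order in either group.

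Below them the order was less distinct on the same scale. In the knockdown NDRG1 (3.60 ± 0.159), VEGFA (3.42 ± 0.134), KDM3A (2.94 ± 0.382), EPAS1 (2.49 ± 0.449) and EGLN3 (1.91 ± 0.263) followed in this order, and the libraries of each of the first 4 overlapped with those of the next gene. In the control VEGFA (3.14 ± 0.278) overlapped with NDRG1 (2.74 ± 0.159) and NDRG1 with KDM3A (2.68 ± 0.174), while EGLN3 (1.59 ± 0.113) overlapped with EPAS1 (1.44 ± 0.0679). NDRG1 thus stood before VEGFA in the knockdown and after it in the control, and EPAS1 before EGLN3 in the knockdown and after it in the control. ANKRD37 was last, at 0.687 ± 0.112 in the knockdown and 0.633 ± 0.103 in the control. Merged exons include those of rare transcripts, 14431 bases for VEGFA, which lowers the value of such a gene on this scale.

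Transcripts of genes whose proteins pair with or restrain HIF gave no call in the edgeR fit over 6 libraries. In a list of 21 genes for HIF partners and oxygen sensing, 20 were tested (HIF3A had no counts). Of these, 0 were called by edgeR and 1, as lower, by DESeq2, which called 2.69% of all genes it tested lower. With control replicate 2 left out, edgeR also called 1 as lower, a setting in which it called 330 of all 18490 tested genes lower. An unadjusted p under 0.05 was found for 3, of which 1 was higher and 2 were lower, against the 15.6% of all tested genes given above. The median log2 fold change was -0.0021, with 10 above 0 and 10 below. ARNT, the partner of both alpha subunits, was at 49.3 ± 5.50 CPM in the knockdown and 50.0 ± 1.35 CPM in the control, and VHL at 63.7 ± 2.64 CPM in the knockdown and 62.7 ± 3.09 CPM in the control (SD, n = 3 each).

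HIF1AN, the asparagine hydroxylase that blocks the binding of coactivators to HIF, had the smallest p of that list. It was at 75.7, 82.9 and 76.3 CPM in the 3 knockdown libraries, against 105, 113 and 95.8 CPM in the 3 controls, with no overlap. Its log2 fold change was -0.41 (SE 0.101), with an edgeR adjusted p of 0.0995 and a DESeq2 adjusted p of 0.00790. EGLN1, the main HIF prolyl hydroxylase, was at 62.2 ± 4.09 CPM in the knockdown and 77.4 ± 15.6 CPM in the control (SD, n = 3 each, edgeR adjusted p = 0.310), with overlapping groups. RACK1 and ELOB, both linked to HIF degradation, had log2 fold changes of 0.23 and 0.33 and were not called, and SRRM2 on the opposite strand covers 16.8% of the exon bases of ELOB.

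Among 35 other hypoxia targets that are not glycolytic, 2 rose, CA9 and HMOX1, and 0 fell, against 0.451% of all tested genes called higher and 0.203% called lower. Of the 35, 32 were tested, and 16 had a log2 fold change above 0, with a median of 0.019. An unadjusted p under 0.05 was found for 12, of which 9 were higher and 3 lower, against 8.15% of all tested genes higher and 7.43% lower. DESeq2 called 5, all higher, among them CA9, HMOX1, TFRC and BHLHE41. Over all genes it tested, DESeq2 called 3.42% higher and 2.69% lower. With control replicate 2 left out, edgeR called 3 of 33 tested as higher and 1 as lower. Over all 18490 genes tested in that setting, it called 259 higher and 330 lower. CA9, the membrane carbonic anhydrase used as a marker of hypoxic tumour tissue, was at 13.3, 9.32 and 17.2 CPM in the 3 knockdown libraries, against 1.83, 4.60 and 2.61 CPM in the 3 controls. Its groups were far apart, and its log2 fold change was 2.14 (SE 0.327, edgeR adjusted p = 0.0169). ARHGEF39, on the opposite strand, covers 38.5% of the exon bases of CA9 and itself differed by -0.071 on the log2 scale (edgeR adjusted p = 0.907).

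HMOX1, the enzyme that breaks down haem and a target of several stress pathways, was at 88.7, 79.9 and 86.8 CPM in the 3 knockdown libraries, against 48.1, 53.8 and 57.5 CPM in the 3 controls. Its log2 fold change was 0.68 (SE 0.105, edgeR adjusted p = 0.0177). TFRC, the transferrin receptor that takes up iron, averaged 233 ± 17.9 CPM in the knockdown and 163 ± 26.3 CPM in the control (SD, n = 3 each, edgeR adjusted p = 0.0995). The calls of CA9 and HMOX1 were lost when some single libraries were left out. With knockdown replicate 1 left out, the edgeR adjusted p was 0.0866 for CA9 and 0.117 for HMOX1, and with knockdown replicate 3 left out, 0.112 for CA9 and 0.142 for HMOX1. With control replicate 3 left out it was 0.0893 for CA9 and 0.0636 for HMOX1, and with control replicate 1 left out it was 0.0684 for HMOX1.

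**Figure D3:**
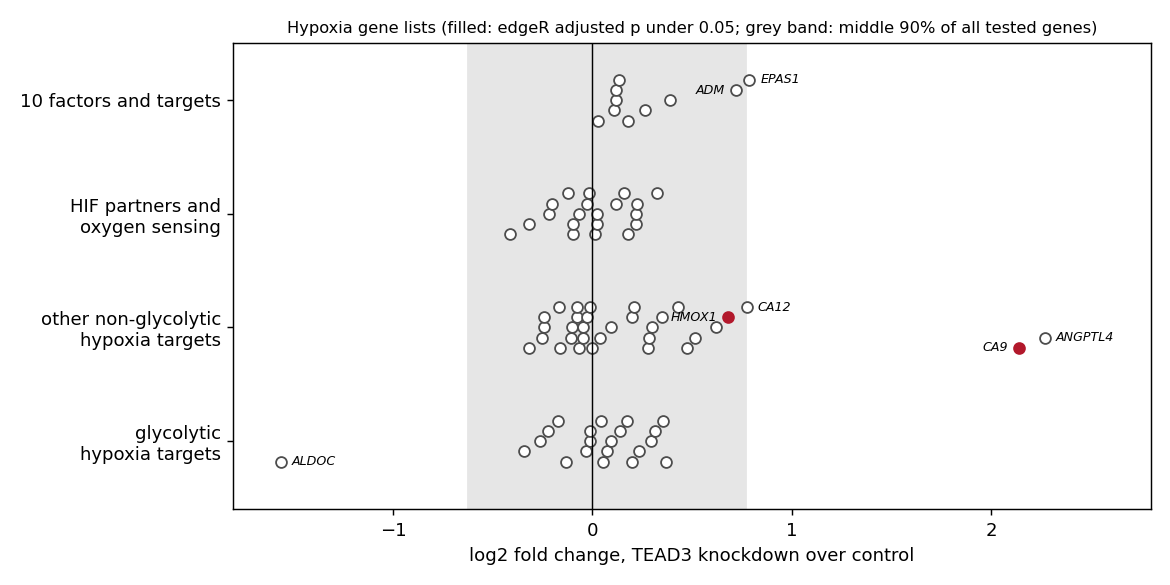
Log2 fold changes, TEAD3 knockdown over control, of the tested genes of 4 lists, 1 point a gene; filled points passed edgeR's test and the grey band, from -0.62 to 0.77, holds the middle 90% of all tested genes. EPAS1 at 0.79 is the 1 gene of the 10 outside the band, and the 2 filled points are CA9 and HMOX1.

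Glycolytic hypoxia targets had no call in the edgeR fit over 6 libraries. All 21 were tested, and edgeR and DESeq2 both called 0. With control replicate 2 left out, edgeR called 1 as higher, a setting in which it called 259 of all 18490 tested genes higher. An unadjusted p under 0.05 was found for 5 that were higher and 3 that were lower, against 8.15% of all tested genes higher and 7.43% lower. The median log2 fold change was 0.054. ALDOA, TPI1 and PGK1, enzymes of the middle of glycolysis, had log2 fold changes of 0.36, 0.29 and 0.32, and SLC2A3, a glucose transporter, had -0.34 (edgeR adjusted p = 0.167). An annotated gene on the same strand covers 42.3% of the exon bases of ALDOA, so its level is uncertain.

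Receptors that answer VEGFA and adrenomedullin were not called. Of 12 genes for VEGF and adrenomedullin signalling 9 were tested, and edgeR and DESeq2 both called 0. An unadjusted p under 0.05 was found for 1, as higher, against 8.15% of all tested genes higher and 7.43% lower. This was KDR, the main VEGFA receptor of blood vessels. KDR was scarce here at 1.12 ± 0.176 CPM in the knockdown and 0.575 ± 0.115 CPM in the control (SD, n = 3 each, edgeR adjusted p = 0.254). NRP1 and NRP2, coreceptors for VEGF, had log2 fold changes of 0.12 and -0.16, and PGF, a growth factor related to VEGFA, had -0.38. CALCRL, a subunit of receptors for adrenomedullin, was at 72.2 ± 9.36 CPM in the knockdown and 70.6 ± 5.35 CPM in the control (SD, n = 3 each). The RAMP genes on the same list were scarce. RAMP1 averaged 0.423 CPM in the knockdown and 0.453 CPM in the control, RAMP2 0.577 and 0.515 CPM, and RAMP3 had no counts.

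Genes that govern the making of HIF subunits and the removal of mitochondria gave 1 DESeq2 call each and 0 edgeR calls. DESeq2 called 6.11% of all genes it tested. Of 9 genes for HIF subunit transcription and translation, 3 had an unadjusted p under 0.05, against 15.6% of all tested genes. Of these 3, 1 was higher and 2 were lower. They were EIF4EBP1, a repressor of translation, at a log2 fold change of 0.39 (adjusted p = 0.142 by edgeR and 0.0286 by DESeq2), and the transcription factors SP1 at -0.27 and STAT3 at -0.24. EIF4E, which binds the cap of messenger RNA, was at 0.16. Of 7 genes of the mitophagy pathway of BNIP3, 1 had an unadjusted p under 0.05, against the same 15.6% of all tested genes. It was SQSTM1, an autophagy receptor, at 2906 ± 98.0 CPM in the knockdown and 2165 ± 211 CPM in the control (SD, n = 3 each). The edgeR adjusted p of SQSTM1 was 0.0857 and its DESeq2 adjusted p 0.00236. MRNIP on the opposite strand covers 20.7% of the exon bases of SQSTM1. BNIP3L, the closest relative of BNIP3, had a log2 fold change of -0.10, FUNDC1, another mitophagy receptor, 0.15 and MAP1LC3B, a protein of the autophagosome membrane, -0.085.

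The genes whose log2 CPM followed HIF1A most closely over the 6 libraries, among 10364 compared, were UBLCP1 (Pearson r 0.998), FGF5 (0.997) and ABCE1 (0.996). Those closest to EPAS1 were CRBN (0.994), TBC1D15 (0.992) and PVT1 (0.991), none of which was called. With 6 libraries in 2 groups, such values describe these libraries only, and the difference between the groups enters them.

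The libraries held 63145768 to 64808615 counts in the knockdown and 58344026 to 63685272 in the control. TEAD3 itself was at 4.70, 8.35 and 6.08 CPM in the 3 knockdown libraries, against 14.9, 20.3 and 21.0 CPM in the 3 controls, and fell to 0.340 of the control level (log2 fold change -1.55, edgeR adjusted p = 0.0114). Of 10 glioma and astroglial markers 1, OLIG2, had no counts. The sum of the 10 was 4386 to 4943 CPM in the knockdown and 5319 to 5886 CPM in the control, most of it VIM. Of these 10, 8 were tested and edgeR called 0. At an unadjusted p below 0.05, 1 was higher and 3 were lower, against 8.15% and 7.43% of all tested genes. SLC1A3 was the higher one, at 6.57 ± 0.689 CPM in the knockdown and 4.30 ± 0.359 CPM in the control (SD, n = 3 each, DESeq2 adjusted p = 0.0481). The lower ones were VIM, SOX2 and GFAP, of which GFAP was at 0.572 ± 0.212 CPM in the knockdown and 1.46 ± 0.298 CPM in the control (SD, n = 3 each, DESeq2 adjusted p = 0.0519). Endothelial markers summed to 2.04 to 3.55 CPM in the knockdown and 2.39 to 3.01 CPM in the control, and PTPRC, which defines white blood cells, was at most 0.122 CPM. Immune markers, mostly CD68, summed to 124 to 145 CPM in the knockdown and 124 to 155 CPM in the control, with 2 of 5 at 0. Epithelial markers summed to 326 to 341 CPM in the knockdown and 315 to 412 CPM in the control, and neuronal markers to 259 to 266 CPM in the knockdown and 223 to 267 CPM in the control. These sums were mostly KRT8 and KRT18 for the epithelial list and TUBB3 for the neuronal list, and edgeR called 0 genes of either. Annotated genes on the same strand cover 81.7% of the exon bases of CD68 and 35.8% of those of TUBB3, so their levels are uncertain. CLDN4, an epithelial marker, was at 6.86 ± 0.422 CPM in the knockdown and 12.01 ± 2.98 CPM in the control (SD, n = 3 each), with a log2 fold change of -0.81, an edgeR adjusted p of 0.0903 and a DESeq2 adjusted p of 0.00327. Among neuronal markers the log2 fold change was -0.63 for SNAP25 (edgeR adjusted p = 0.196) and 0.77 for SYP (edgeR adjusted p = 0.353). The part of these markers in the results was not tested.

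One measure moved with EPAS1 and ADM inside the knockdown group. RN7SL1, a small RNA without a poly(A) tail that oligo(dT) capture should leave behind, was at 60.8, 14.4 and 79.8 CPM in the 3 knockdown libraries, against 14.7, 34.5 and 17.6 CPM in the 3 controls. Knockdown replicates 1 and 3 were above every control in RN7SL1 and were also the higher libraries for EPAS1, ADM and CA9. Knockdown replicate 2 was low in RN7SL1 and above every control in EPAS1 and ADM. Among the controls, replicate 2 was highest in RN7SL1, ADM and CA9 and lowest in EPAS1. The cause of this pattern was not tested. With the mean level of 5 RNAs without a poly(A) tail as a covariate, the log2 fold change was 0.63 for EPAS1 (edgeR adjusted p = 0.334) and 0.55 for ADM (edgeR adjusted p = 0.337). It was 1.68 for CA9 (edgeR adjusted p = 0.0199) and 0.63 for HMOX1 (edgeR adjusted p = 0.147), whose call was lost. All 5 RNAs had log2 fold changes above 0, from 0.66 to 1.22, and edgeR called 0 of them. The covariate thus overlaps in part with the group, and this fit cannot fully separate the 2.

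**Figure D4:**
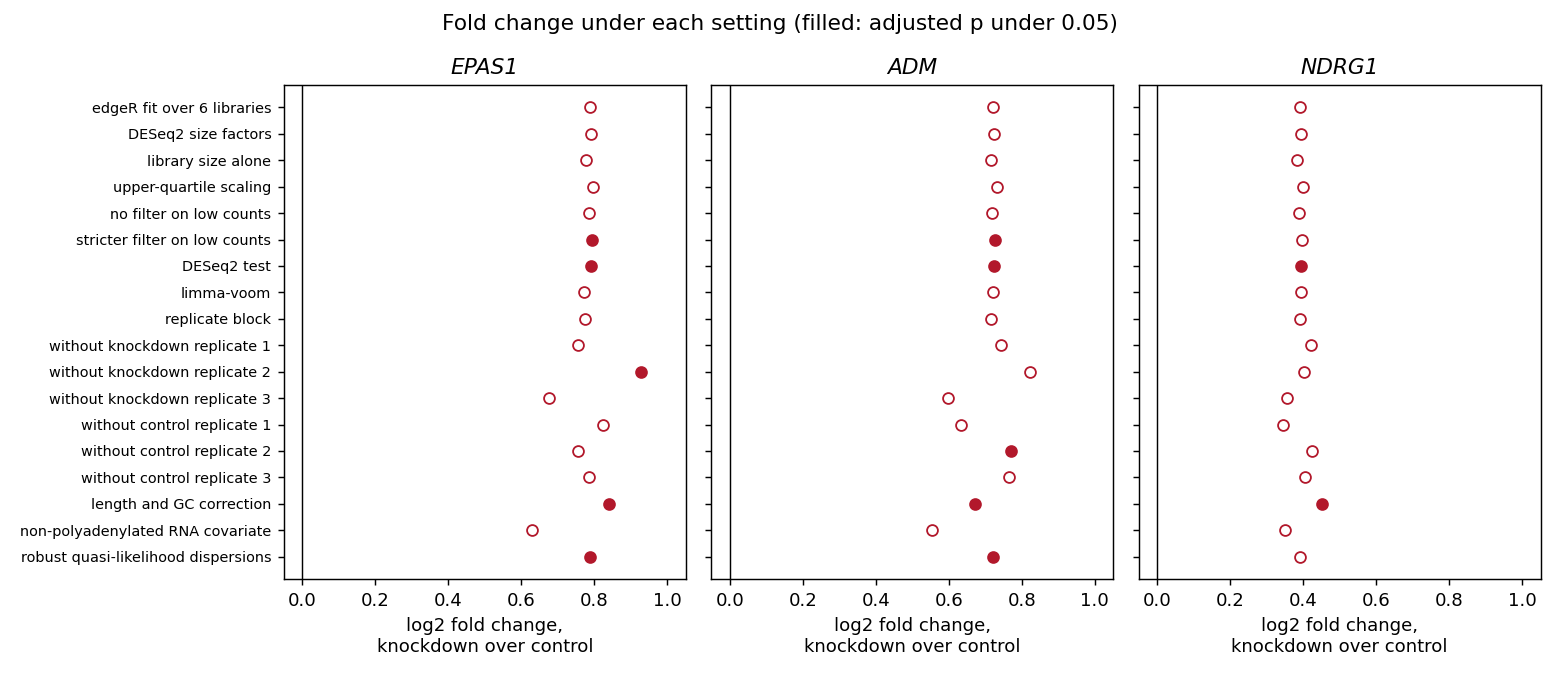
Log2 fold changes, TEAD3 knockdown over control, of EPAS1, ADM and NDRG1 in the edgeR fit over 6 libraries and under 17 alternative settings, with filled points where the adjusted p was under 0.05. EPAS1 stays between 0.63 and 0.93, ADM between 0.55 and 0.82 and NDRG1 between 0.34 and 0.45.

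EPAS1 and ADM lay close to the threshold, and their calls changed with the setting while their direction did not. Each was called in 5 of 17 alternatives. EPAS1 was called with a stricter filter on low counts (edgeR adjusted p = 0.0384), by DESeq2, with knockdown replicate 2 left out (0.0397), after correction for length and GC (0.0230) and with robust dispersions (0.0270). ADM was called with the stricter filter (0.0440), by DESeq2, with control replicate 2 left out (0.0428), after correction for length and GC (0.0271) and with robust dispersions (0.0338). NDRG1 was called in 2, by DESeq2 and with the length and GC correction (0.0177). None of the other 7 genes was called in any of the 17.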

How the data were processed

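The values used are the counts that the authors deposited, whole numbers for each gene that are not scaled to depth. Per the labels' protocols, RNA was captured on oligo(dT) beads and made into strand-marked paired-end libraries. The submitters' processing notes name build GRCh38 and the tools StringTie 1.3.4d, HISAT2 2.0.4, cutadapt 1.9, edgeR and DESeq2. The sources used here do not say which tool wrote the counts, or which annotation release and strand setting it had. The labels do not say that replicates were separate cultures. The p-values set the difference between groups against the spread among these libraries, which could be technical variation, so they may not extend to new cultures.

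Totals were 63145768, 64459583 and 64808615 counts in knockdown replicates 1 to 3, and 63685272, 58344026 and 59631029 in control replicates 1 to 3. A level of 3 counts equals 0.0457 to 0.0529 CPM (counts scaled to the library total), a floor for counting error only. No 2 libraries agreed within counting noise. The chi-square per degree of freedom was 21.3 to 73.0 within groups and 38.7 to 87.4 between groups, so the ranges overlapped.

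Tests used edgeR 4.0.16 in R 4.3.3 (TMM, filterByExpr, minimum count 10, two-sided quasi-likelihood F test, group as the only term). Of 29520 genes with a count, 17723 were tested. Symbols came from a table of gene identifiers (60588 of 60612 rows matched) and positions from GENCODE 29 (58394 rows). All 10 genes are named; of each other list, every called gene or else the genes with the smallest unadjusted p, up to 4, plus TEAD3 and the 3 genes most like HIF1A and EPAS1. ARNT, VHL, CALCRL, the RAMP genes, the single cell type markers given with values, P4HA2, P4HB and other relatives outside that rule were chosen after their values were seen. The values of 1 gene that the rule names are not reported here. The 10 genes and all lists were chosen with earlier results of these data known. The procedure was also run on simulated counts with known changes, and the outcome of that run is not given here. Alternatives were other scalings, filters, DESeq2 1.42.0, limma-voom (limma 3.58.1), a replicate block, leaving out each library, a length and GC correction, a covariate for non-polyadenylated RNA and, chosen after seeing the data, robust dispersions.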

Additional observations from a re-analysis of the deposited data

How the results depend on the processing

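Over all tested genes edgeR called 116. The count was 31 without a filter on low counts, 872 with DESeq2, 571 with the length and GC correction, 23 with the non-polyadenylated RNA covariate and 197 with robust dispersions. Leaving out 1 library gave 20 to 589: 29, 73 and 20 without knockdown replicate 1, 2 or 3, and 58, 589 and 43 without control replicate 1, 2 or 3. With the replicate number as a block it was 63. Same-numbered libraries deviated with correlations of 0.0056, -0.0169 and 0.0083 across genes, and different-numbered ones with -0.0249 to 0.0188. These values do not show a pairing by number, and they cannot settle whether same-numbered libraries shared a culture or day. Under the block none of the 10 genes was called. Of the 10 genes, edgeR called 0. With the stricter filter 2 were called higher, against 106 of all 13800 genes tested. DESeq2 called 3 higher, against 488 of 14274. With the length and GC correction 3 were called higher, against 248 of 17723, and with robust dispersions 2, against 133 of 17723. Leaving out 1 library gave 0 to 1, the 1 being EPAS1 without knockdown replicate 2 and ADM without control replicate 2. No alternative called any of the 10 lower. Their median log2 fold change was 0.16, and 0.17 to 0.21 when 1 library was left out. With 1 library left out, ANKRD37 lay between -0.022, without knockdown replicate 2, and 0.26. P4HA1 lay between -0.066, without knockdown replicate 3, and 0.11, with -0.011 without control replicate 2 and, with all libraries, -0.039 with the length and GC correction. The other 8 genes kept their direction in all 17 alternatives. CA9 kept its call in 12 of 17 and HMOX1 in 11; with all libraries, CA9 lost it without a filter (edgeR adjusted p = 0.0927) and under the block (0.0593), and HMOX1 without a filter (0.0639) and with the covariate (0.147). The cause of these differences was not tested. With 3 libraries a group, the intervals of the 7 genes that include 1 had upper ends of 1.21-fold to 1.51-fold for 6 of them and 1.65-fold for ANKRD37, the scarcest, and even the 1.73-fold difference of EPAS1 was not called.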
